A study of Mus musculus with 12 samples.

Results

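The cytosolic ribosomal protein genes were 79 of the 15369 genes that could be tested, and of 15759 entries in all. They were chosen by name, as symbols that begin with Rpl, Rps or Rplp and a number, or as Rpsa, whose mean over the 12 libraries reached 10 normalized counts. The rule uses no expression difference, but it was set with earlier results of these data known. All 79 symbols that matched the name passed the minimum, and the lowest of them, Rpl30, had a mean of 28.0 normalized counts, so that no gene lay just outside it. By symbol, and with paralogs included, 44 were counted with the large subunit and 32 with the small subunit, Rps4l among the latter. The other 3 encode the acidic proteins of the stalk (Rplp0, Rplp1 and Rplp2). S6 kinase genes and entries named as pseudogenes were left out. GENCODE places the 79 genes on 19 chromosomes, 4 of them on the X chromosome, and annotates 78 as protein coding and Rps4l as a transcribed processed pseudogene.

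The libraries came from whole cortex and whole cerebellum of C57BL/6J mice at 12 weeks of age. SCA1 KI mice model spinocerebellar ataxia type 1, a neurodegenerative disease caused by a polyglutamine expansion in ataxin-1, and carried 154 glutamine codons in one allele of the endogenous Atxn1 gene and 2 in the other. WT littermates were the controls. The study took its cerebellum data from a dataset that its laboratory had published earlier, so region and dataset coincide. Region and genotype gave 4 groups, each with 3 libraries of poly-adenylated RNA, with 29520855 to 51311309 reads on genes. The labels list males, whereas the study's methods describe males and females combined, and nothing in the columns links a library to an animal. Ddx3y, a gene of the Y chromosome, had 2664 to 4728 normalized counts over the 12 libraries, so every library held RNA of a male.

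Cytosolic ribosomes translate all messages of the nuclear genome. Each holds a single copy of nearly every ribosomal protein, and the genes for these proteins are transcribed and translated in step. Their messages begin with a run of pyrimidines, the terminal oligopyrimidine (TOP) tract, through which mTORC1 and La-related protein 1 set how strongly they are translated. Cells that grow or synthesize much protein have high levels of them, and some ribosomal proteins, among them Rpl5 and Rpl11, bind Mdm2 and stabilize p53 when ribosome assembly fails.

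The TOP tract is the sequence feature that sets these messages apart, so the annotated starts were examined first. In the RefSeq promoter table (GRCm38.p6), 58 of the 79 genes had an entry. Read in the direction of transcription, a start tract was counted where the first base is C and at least the first 5 bases are all C or T. Such a start was present in 13 of the 58 genes (22.4%) and in 3.05% of the 11450 tested genes with an entry. A run of at least 8 pyrimidines anywhere within 10 bases of the start was present in 37.9% of the ribosomal protein genes and in 10.2% of tested genes. Annotated starts are not always the base at which transcription begins, and genes can have tracts that these windows miss. Some of the 13 starts are shown to let the tract be seen, each with 15 bases before and 15 from the annotated start and the tract in capitals, followed by Rpl12, whose annotated start lies on a purine.

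Rpl15 (chr14:18270972-18271001, minus strand): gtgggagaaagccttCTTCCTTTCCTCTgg
Rpl35 (chr2:39005117-39005146, minus strand): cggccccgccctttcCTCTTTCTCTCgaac
Rps10 (chr17:27635230-27635259, minus strand): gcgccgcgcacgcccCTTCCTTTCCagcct
Rps18 (chr17:33955651-33955680, minus strand): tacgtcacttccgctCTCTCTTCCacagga
Rps6 (chr4:86857353-86857382, minus strand): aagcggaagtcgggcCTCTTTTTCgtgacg
Rpl38 (chr11:114668565-114668594, plus strand): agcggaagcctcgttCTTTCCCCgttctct
Rpl12 (chr2:32961697-32961726, plus strand): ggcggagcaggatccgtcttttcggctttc

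These starts differ in the tract itself, which runs for 13 bases in Rpl15 and for 8 in Rpl38 before the first purine. The genes with a start tract had a median LFC of 0.14 between the genotypes in the cortex and −0.04 in the cerebellum, beside 0.13 and −0.03 for the 45 genes whose entry held none, and no gene of either kind was a DEG. The genes with and without a tract thus had nearly the same medians.

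A pair of cortex libraries stood apart from the rest in the level of these genes, SCA1 KI library A and WT library D. The reads on the 79 genes made up 1.27% of all reads on genes in library A and 1.06% in library D, and 0.775% to 1.00% in the other 10 libraries. The 95% Wilson interval of each share was no wider than 0.00362 percentage points to each side, for counting error only. Relative to each gene's own mean over the 12 libraries, the median ribosomal protein gene stood 0.51 higher on the log2 scale in library A and 0.37 higher in library D. In the other cortex libraries this median was −0.10 (WT B), 0.04 (WT C), 0.10 (SCA1 KI E) and 0.14 (SCA1 KI F), and in the 6 cerebellum libraries it lay between −0.24 and −0.15. All 79 genes were highest in A among the SCA1 KI cortex libraries, and 77 of 79 were highest in D among the WT cortex libraries. Since the 2 libraries are of different genotypes, A raised the LFC of SCA1 KI against WT and D lowered it. By group, the share of reads was 0.888% ± 0.147 in WT cortex, 1.07% ± 0.18 in SCA1 KI cortex, 0.808% ± 0.026 in WT cerebellum and 0.803% ± 0.028 in SCA1 KI cerebellum (SD, n = 3).

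**Figure D1:**
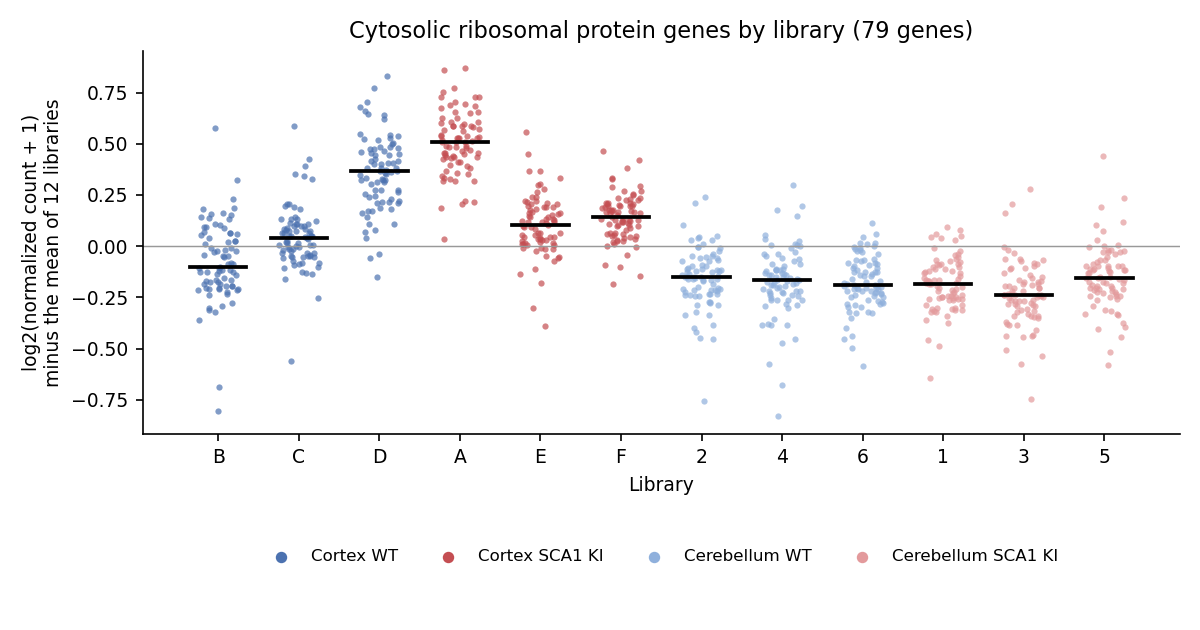
Each point is 1 of the 79 ribosomal protein genes, drawn as log2(normalized count + 1) minus the gene's mean over the 12 libraries (vertical axis) for each library (horizontal axis), with colours for the 4 groups and black lines for the medians. The medians of cortex libraries D (0.37) and A (0.51) stand above those of the other 10 libraries, and the 6 cerebellum medians lie between −0.24 and −0.15.

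Libraries A and D also had higher levels of other genes with short transcripts. The slope of a gene's deviation on its transcript length was −0.151 per doubling in library A and −0.051 in library D, and between −0.025 and 0.047 in the others. The medians of the mitochondrial ribosomal proteins (77 genes), the proteasome (38 genes) and the subunits of oxidative phosphorylation (81 genes) were 0.29, 0.35 and 0.24 in library A, and 0.15, 0.13 and 0.16 in library D, beside −0.19 to 0.06 for the 3 lists in the other 10 libraries. After removal of the length and GC trends of each library, the ribosomal protein genes stood 0.30 higher in library A and 0.26 in library D, and between −0.22 and 0.17 elsewhere. Within the family the excess in library A over libraries E and F was positive in 79 of 79 genes (median 0.39), and that in library D over B and C in 78 of 79 (median 0.37). The exception was Rpl30, one of the 3 least abundant genes. The excess was larger for shorter coding sequences in both libraries (Spearman's rho across 78 genes −0.52 in A and −0.54 in D, genes of the same libraries and not replicates). What set the 2 libraries apart was not tested.

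The ribosomal protein genes varied more between replicates than other genes did in the cortex, and not in the cerebellum. The median SD within a group, on the log2 scale, was 0.24 (WT) and 0.23 (SCA1 KI) in the cortex, beside 0.13 and 0.14 for other genes. In the cerebellum it was 0.06 for both genotypes, beside 0.11 (WT) and 0.07 (SCA1 KI). All p-values below rest on the spread between the 3 libraries within each group, which may be technical in part. Fits over all 12 libraries shared a single estimate of this spread for each gene across the 4 groups. The wider spread of the cortex libraries thus entered the SEs, p-values and intervals of the cerebellum as well.

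Levels of the 79 genes spanned a wide range that was similar in the 4 groups. Compared per kb of coding sequence, the median gene had 8092 normalized counts per kb over the 12 libraries. Rpl41, which encodes the smallest ribosomal protein with a coding sequence of 75 bases, was highest with 65612 ± 28632 (SD, n = 12, both regions and genotypes). It was followed by the stalk gene Rplp1 (26123 ± 8216, SD, n = 12) and Rps29 (21244 ± 4360, SD, n = 12). The SDs include the regional differences described below. The lowest were Rpl30 with 81.0 ± 24 (SD, n = 12), Rps27 with 164 ± 48 (SD, n = 12) and Rpl34 with 204 ± 58 (SD, n = 12), far under the next gene that is not a paralog, Rpl10a with 3382 normalized counts per kb. Reads were counted over whole genes and divided here by coding length, so genes with long untranslated ends, or with very short coding sequences such as Rpl41, are raised on this scale.

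**Figure D2:**
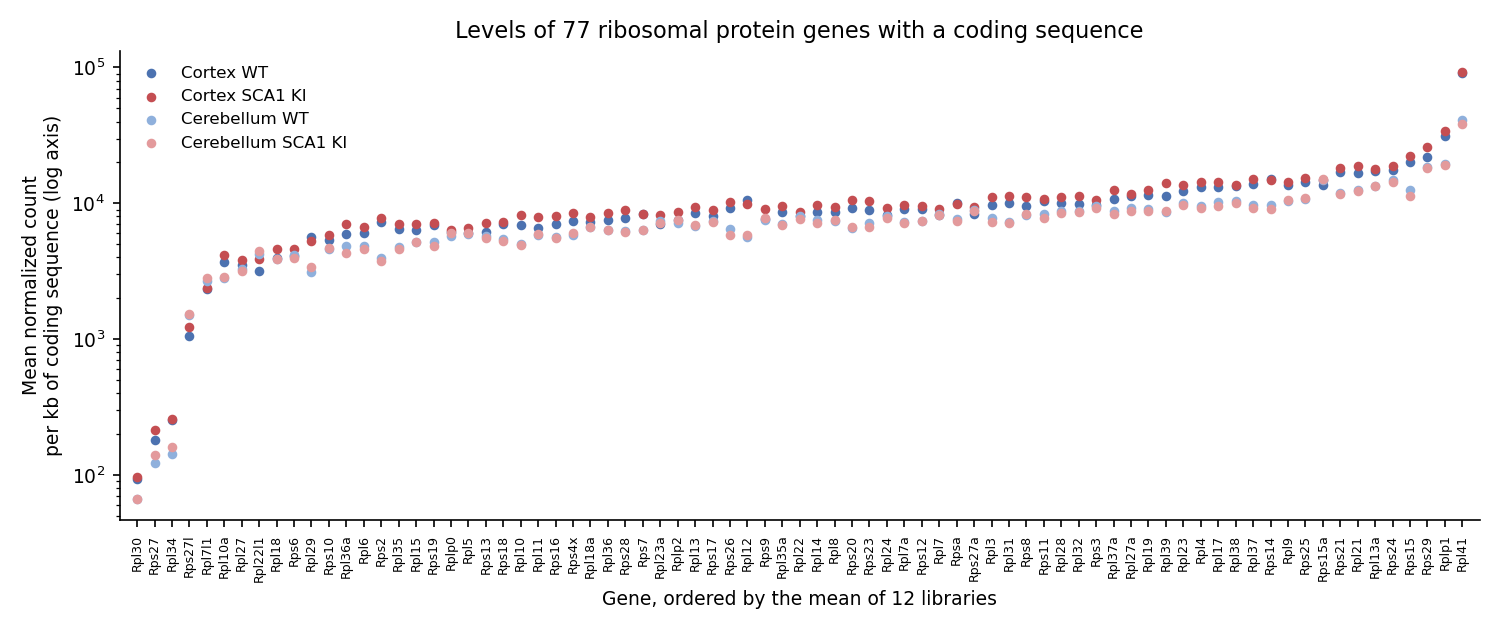
Mean normalized count per kb of coding sequence (vertical log axis) for 77 ribosomal protein genes with a coding sequence, ordered by their mean over 12 libraries, with 1 point for each of the 4 groups. Rpl30, Rps27 and Rpl34 lie between 81.0 and 204 on the mean, most of the rest lie near the median of 8092, and Rpl41 reaches 65612.

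The levels of single genes are uncertain where reads cannot be assigned to 1 gene. Ribosomal protein genes have many processed pseudogenes, copies of their messages in the genome. Cut into windows of the read length of 75 bases, the coding sequence of the median gene shared 84.5% of its windows with annotated transcripts of another gene, and all windows were shared in 26 genes. Rps27 shared all of its windows, Rpl34 60.6% and Rpl30 72.3%. How the authors' counting treated such reads is not given in the sources used here. Exons of 16 of the genes overlapped another gene of the table, and whether strand was used in counting is not given either. Across the 78 genes the level per kb and the share of windows had a Spearman's rho of −0.10, a description of these genes only.

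No ribosomal protein gene was a DEG between SCA1 KI and WT in the cortex. A DEG was defined by a Benjamini-Hochberg adjusted p under 0.05 in limma and an absolute LFC over 0.25. Of all tested genes 15.6% were DEGs in this comparison, 741 higher and 1661 lower in SCA1 KI. Among the 79 genes, 7 had an unadjusted p under 0.05 in limma, and edgeR and DESeq2 on the recovered reads also called 0 genes, with 7 at an unadjusted p under 0.05 in each. The median LFC of the 79 genes was 0.14, beside −0.003 for all tested genes, with 74 of 79 above 0 and a range from −0.09 (Rpl29) to 0.46 (Rps4l). In none of the 79 did the SCA1 KI libraries lie wholly above or below the WT libraries, whereas the genotypes did not overlap in 30.9% of all tested genes. The 95% interval of the LFC lay within ±0.5 in 63 of the 79 genes and within ±0.25 in 5, so that smaller changes were not detectable beyond the spread of these libraries.

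Rpl23a, a protein of the large subunit near the exit of the peptide tunnel (chromosome 11, 78180932 to 78183584, GRCm38, minus strand), had the smallest p. Its normalized count was 3066, 3115 and 3682 in WT libraries B, C and D and 4370, 3614 and 3600 in SCA1 KI libraries A, E and F. The WT library D lay above 2 of the 3 SCA1 KI libraries. The LFC was 0.23 (standard error, SE, 0.08, limma adjusted p = 0.0789). All coding windows of Rpl23a are shared with other transcripts, and its exons overlap Tlcd1 and Snord42b.

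Rps4l, annotated as a processed pseudogene related to Rps4x (chromosome 6, 148354656 to 148355598, plus strand), had the largest LFC. Its normalized count was 436, 320 and 558 in the WT libraries B, C and D and 686, 582 and 507 in the SCA1 KI libraries A, E and F. The groups overlapped through library D. The LFC was 0.46 (SE 0.18, limma adjusted p = 0.0937), and 6.67% of its windows are shared.

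Rps9, a small-subunit protein that bears on the accuracy of decoding, followed with 4032, 4267 and 5196 normalized counts in WT B, C and D and 5931, 4866 and 5085 in SCA1 KI A, E and F. Again only WT library D reached into the range of the SCA1 KI libraries. The LFC was 0.24 (SE 0.09, limma adjusted p = 0.105).

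These values depended on libraries A and D. Without WT library D, 11 of the 79 genes passed the test, all higher in SCA1 KI, and the median LFC was 0.27. Of all tested genes 14.8% were DEGs in that fit. The shares of all tested genes in this paragraph count both directions, and in the main fit 741 genes were higher and 1661 lower. The share called higher alone is not given for these fits, so the counts are not read as a result about the family. The 11 genes were Rpl3, Rpl10, Rpl11, Rpl23a, Rpl35a, Rps4l, Rps9, Rps13, Rps23, Rps26 and Rps29, named here because they passed in that fit. Without SCA1 KI library A none passed, beside 13.4% of all tested genes, and the median LFC was 0.02. Without both, 4 genes passed, beside 12.6% of all tested genes, all higher in SCA1 KI (Rpl35a, Rps4l, Rps9 and Rps29, with LFCs of 0.25, 0.54, 0.26 and 0.25), and the median LFC was 0.14 with 71 of 79 above 0. This last fit compared 2 libraries with 2 and was made after the data were seen. After removal of the length and GC trends, 1 gene passed, Rps4l (LFC 0.46, limma adjusted p = 0.0398), beside 16.2% of all tested genes, and the median was 0.07.

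Other genes of the cortex samples moved with genotype beside these. The summed level of 7 markers of cortical excitatory neurons was 88378 to 90282 normalized counts in WT and 59383 to 70325 in SCA1 KI, and that of 7 astrocyte markers 261156 to 269789 and 127452 to 191426. The lowest astrocyte sum was that of library A. The sum of interneuron markers was lower in SCA1 KI as well, whereas those of oligodendrocyte, microglia and endothelium markers overlapped between the genotypes. Sums of hippocampus markers were 4661 to 6178 normalized counts in WT cortex and 2175 to 3536 in SCA1 KI cortex. Those of thalamus and midbrain markers were 6282 to 7079 and 4775 to 5507. The sum of Purkinje cell markers was lower in SCA1 KI cortex too, whereas those of striatum, choroid plexus and granule cell markers overlapped. Whether the dissections differed was not tested. In libraries of whole tissue, fewer cells of a type and less RNA of the markers per cell cannot be told apart. The part of these shifts in the LFCs of the ribosomal protein genes was not tested.

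The cerebellum showed no DEG among the 79 genes either. Of all tested genes 5.36% were DEGs there, 141 higher and 683 lower. None of the 79 had an unadjusted p under 0.05 in limma, edgeR or DESeq2. Each of these fits shared the spread of a gene with the more variable cortex libraries. The number called was 0 in every alternative that was run, among them the fit of the 6 cerebellum libraries alone. The median LFC was −0.03, with 27 of 79 above 0 and a range from −0.16 (Rpl36a) to 0.22 (Rps27). The 95% interval, which rests on the spread shared with the cortex libraries, lay within ±0.5 in 76 of the 79 genes and within ±0.25 in 17. The 3 genes whose interval reached past 0.5 on either side were Rpl30, Rps27 and Rpl34.

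Rps26, a small-subunit protein at the exit of the mRNA channel, had the smallest p in the cerebellum. Its normalized count was 2294, 2180 and 2190 in WT libraries 2, 4 and 6 and 2079, 1968 and 2030 in SCA1 KI libraries 1, 3 and 5. All 3 SCA1 KI libraries lay below the WT libraries, by an LFC of −0.13 (SE 0.10, limma adjusted p = 0.554). The genotypes did not overlap in 6 of the 79 genes, 5 lower in SCA1 KI (Rps15, Rps26, Rpl6, Rpl22 and Rpl36a) and 1 higher (Rpl29), beside 31.8% of all tested genes. Rpl3, which forms part of the peptidyl transferase region, had 9784, 9144 and 9387 normalized counts in WT and 8594, 8559 and 9208 in SCA1 KI, with an LFC of −0.10 (SE 0.08, limma adjusted p = 0.606). Rpl36a, on the X chromosome, had an LFC of −0.16 (SE 0.13, limma adjusted p = 0.613).

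**Figure D3:**
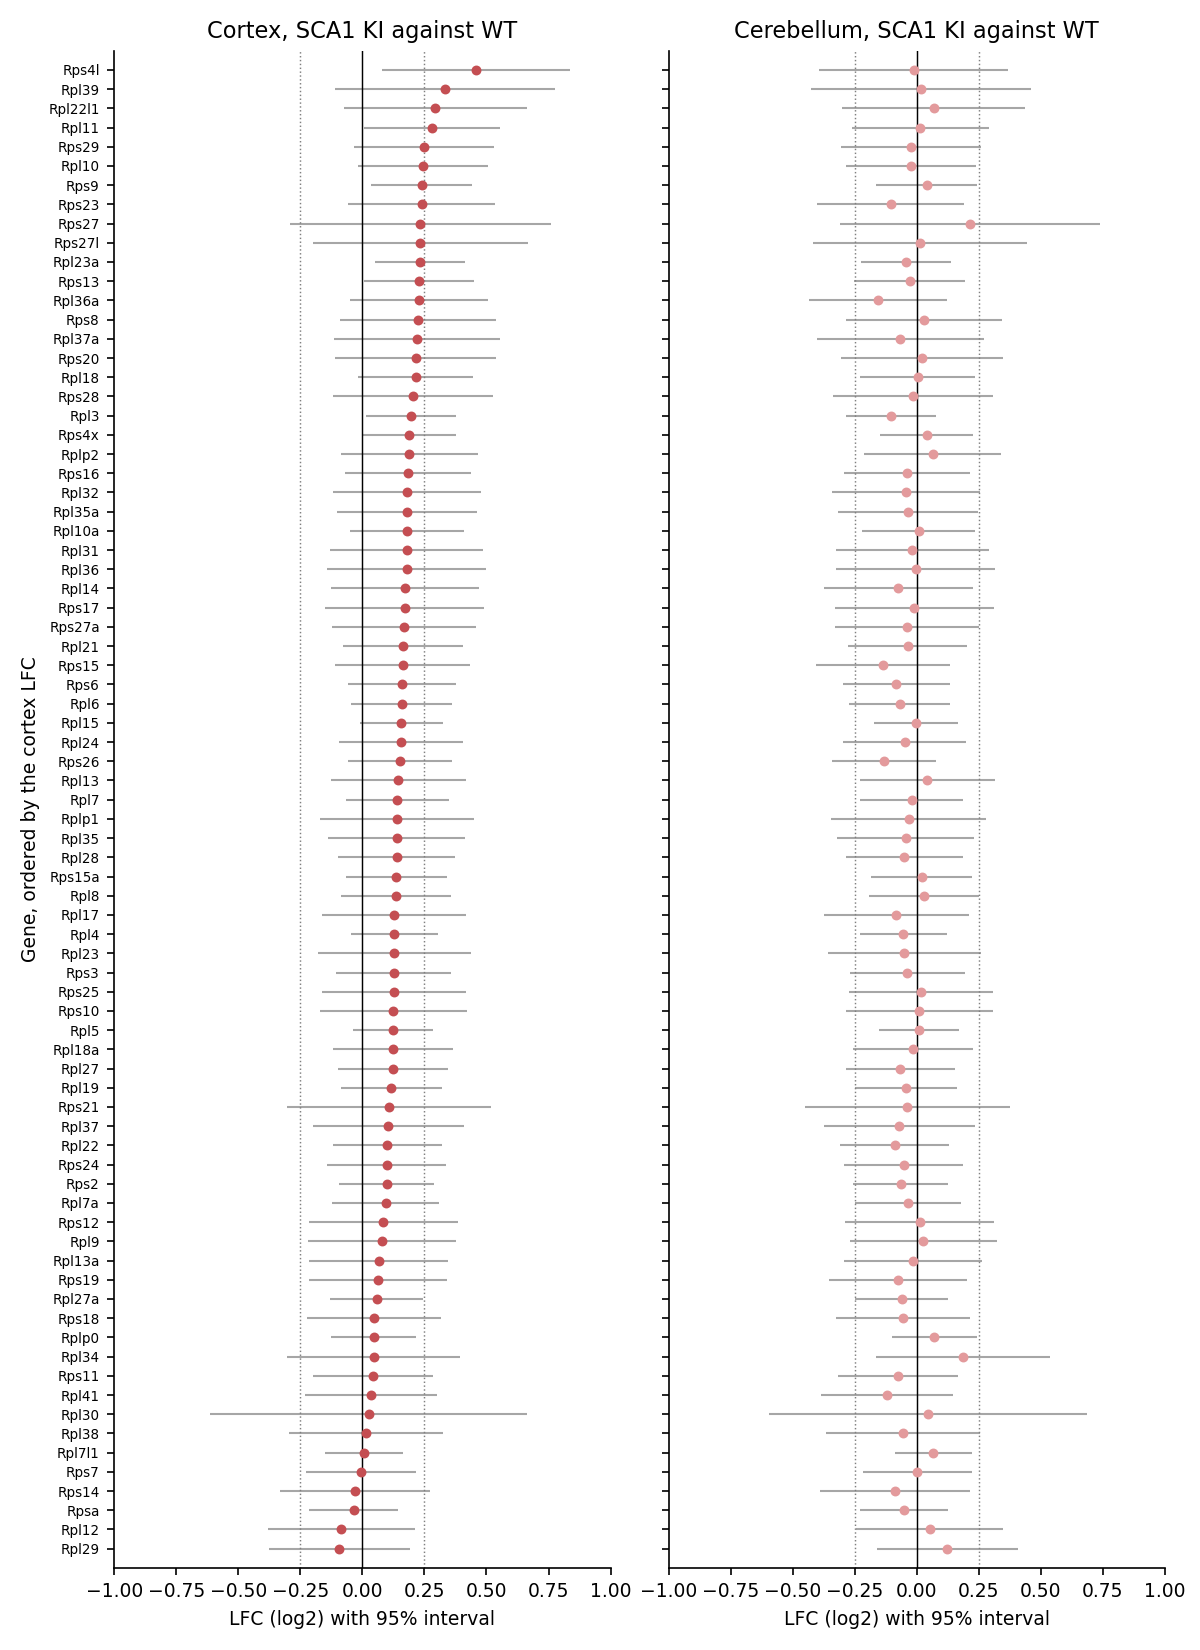
LFC of SCA1 KI against WT (horizontal axis, log2, points) with its 95% interval (lines) for 78 of the ribosomal protein genes in the cortex (left) and the cerebellum (right), ordered by the cortex LFC, with dotted lines at ±0.25. Most points lie above 0 in the cortex (median 0.14) and near 0 in the cerebellum (median −0.03), and no gene was a DEG in either region.

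Whether the effect of genotype differed between the regions was tested as an interaction. Since region and dataset coincide, such a difference could not be told apart from a difference between the datasets. At an adjusted p under 0.05 none of the 79 genes passed, beside 8.15% of all tested genes. In limma and edgeR 2 of the 79 had an unadjusted p under 0.05, and in DESeq2 3, with none called by either tool. The smallest p belonged to Rpl3, whose LFC was 0.30 higher in the cortex than in the cerebellum (SE 0.12, limma adjusted p = 0.158), and to Rpl23a, with a difference of 0.28 (SE 0.12, limma adjusted p = 0.200). Rpl3 passed without WT library D (limma adjusted p = 0.0431) and with the length and GC trend removed (limma adjusted p = 0.0460). Of all tested genes 7.76% and 10.4% passed in these 2 fits. Without libraries A and D, Rpl3, Rpl23a, Rps15 and Rps26 passed, beside 8.03% of all tested genes.

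Genes with roles of their own were not DEGs either. Rpl5 and Rpl11, which carry the 5S RNA and bind Mdm2, had normalized counts of 5358 ± 462 and 3512 ± 687 in WT cortex, and 5840 ± 447 and 4242 ± 657 in SCA1 KI cortex (SD, n = 3). Their LFCs were 0.12 (95% interval −0.04 to 0.29) and 0.28 (0.01 to 0.56), and 0.01 for each in the cerebellum. Trp53 itself was a DEG in the cortex, with an LFC of 0.31 (SE 0.10, limma adjusted p = 0.0428). The stalk genes Rplp0, Rplp1 and Rplp2, which recruit the elongation factors, had cortex LFCs of 0.05, 0.14 and 0.19 and cerebellum LFCs of 0.07, −0.03 and 0.06. Rps6, the substrate of the S6 kinases, had LFCs of 0.16 and −0.08, and Rps19, which is mutated in Diamond-Blackfan anaemia, 0.06 and −0.08. Rpsa, which is also known as a laminin receptor, had LFCs of −0.04 and −0.05, and Rps4x 0.19 and 0.04.

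Other genes of the translation apparatus were read against the shares of all tested genes that were DEGs, 15.6% in the cortex and 5.36% in the cerebellum. Of 45 initiation and elongation factors, 1 was a DEG in the cortex and none in the cerebellum. It was Eef1a1, which brings aminoacyl-tRNA to the ribosome and whose message is itself a TOP message, with 64528 ± 2919 normalized counts in WT and 80309 ± 849 in SCA1 KI (SD, n = 3) and an LFC of 0.32 (SE 0.06, limma adjusted p = 0.00301). Eef1a1 was also the only DEG among 18 further TOP genes. Of 70 ribosome assembly factors, 2 rose in the cortex, the kinase Riok1 (LFC 0.39, limma adjusted p = 0.00639) and Fbl, the methyltransferase of ribosomal RNA (LFC 0.30, limma adjusted p = 0.04997). None of these 70 was a DEG in the cerebellum. Of 28 genes that regulate TOP messages, 3 rose in the cortex and 2 fell, a share near that of all tested genes, and none was a DEG in the cerebellum. Akt2, a kinase upstream of mTORC1, fell by 0.68 (limma adjusted p = 0.000469), and Tia1, an RNA-binding protein that can hold TOP messages back from translation, rose by 0.37 (limma adjusted p = 0.00664). The mitochondrial ribosomal proteins and the proteasome had no DEG in either region, with median cortex LFCs of 0.07 and 0.08, and oxidative phosphorylation had 2 lower in each region, Cox6a2 in both.

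Many of these genes differed between the regions. The cerebellum data come from an earlier dataset, so region and dataset cannot be told apart in these comparisons. Between WT cortex and WT cerebellum, 37 of the 79 genes were higher in the cortex and 2 lower at the same limits, and of all tested genes 31% were higher and 30.7% lower. The median LFC was 0.30, beside 0.002 for all tested genes, with 69 of 79 above 0. In SCA1 KI mice 58 genes were higher in the cortex and 1 was lower, beside 32% and 30.5% of all tested genes, with a median LFC of 0.43. The 37 genes that were higher in the cortex of WT mice were all higher in SCA1 KI mice as well. The 2 comparisons share no library, and the LFCs of the 79 genes had a Spearman's rho of 0.89 between them, as a description across genes. However, library D is in the WT comparison and library A in that of SCA1 KI. The excesses of A and D had a Spearman's rho of 0.56 across the 79 genes. Without both libraries the median LFCs were 0.17 in WT and 0.30 in SCA1 KI. The large and the small subunit were alike, with 22 of 44 and 14 of 32 genes higher in WT cortex and medians of 0.30 for each, and of the stalk genes only Rplp1 passed. Whole cerebellum and whole cortex differ in cell types, granule cell markers summing to 139892 to 200133 normalized counts in the WT and SCA1 KI cerebellum together and to 3804 to 4732 in the cortex, and the part of cell types in these differences was not tested.

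The regional difference was largest in Rpl41, with 6709, 5652 and 7998 normalized counts in WT cortex libraries B, C and D and 3292, 3017 and 2998 in WT cerebellum libraries 2, 4 and 6. The groups were well apart in every library. The mean was 2.19 times as high in the cortex, and the LFC was 1.12 (SE 0.12, limma adjusted p = 3.81e-06). Its coding sequence of 75 bases holds a single window, which is shared with other transcripts. The rest of its transcript of 582 bases was not examined for shared windows.

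Rps2, a small-subunit protein at the entry of the mRNA channel (chromosome 17, 24718116 to 24721929, plus strand), had the smallest p. Its normalized count was 5910, 5992 and 7386 in WT cortex and 3612, 3403 and 3344 in WT cerebellum, with an LFC of 0.89 (SE 0.09, limma adjusted p = 1.34e-06). In SCA1 KI mice it was 7592, 6457 and 6529 in the cortex and 3435, 3170 and 3298 in the cerebellum, so the lowest cortex library of either genotype stood above the highest cerebellum library. Rps2 shares exonic sequence with the small RNA host gene Snhg9 and Snora64, and 76.1% of its windows with other transcripts.

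Rpl12, a protein at the base of the stalk, had 4222, 5074 and 6455 normalized counts in WT cortex and 2829, 2762 and 2792 in WT cerebellum, with an LFC of 0.89 (SE 0.14, limma adjusted p = 7.73e-05). Rpl29, a large-subunit protein that is dispensable for mouse survival, had 2298, 2575 and 3285 in cortex and 1474, 1550 and 1473 in cerebellum, with an LFC of 0.84 (SE 0.13, limma adjusted p = 8.47e-05). Both were among the 5 genes with an LFC below 0 between the genotypes in the cortex (−0.09 each), so their regional LFC was smaller in SCA1 KI (0.75 and 0.63) than in WT. The interaction of neither passed, with limma adjusted p = 0.745 and 0.562.

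Rpl4, which lines the peptide tunnel and shares only 10.5% of its windows with other transcripts, had 15257, 16383 and 17888 normalized counts in WT cortex and 12151, 11984 and 12118 in WT cerebellum (LFC 0.45, limma adjusted p = 0.000298). Rps15, with 23.3% of windows shared, had 7679, 7928 and 10598 in cortex and 5640, 5279 and 5389 in cerebellum (LFC 0.67, limma adjusted p = 0.000399). The coding sequences of these 2 genes are thus largely their own. Rps26 (LFC 0.52) and Rpl34 (LFC 0.82) completed the 8 with the smallest p, the latter at only 42.8 to 99.1 normalized counts over WT libraries. Rpsa, Rps19, Rps4x, Rpl3 and Rpl10 also passed, with LFCs of 0.39, 0.41, 0.34, 0.31 and 0.44. Rpl5, Rpl7, Rpl22 and Rps6, in contrast, had WT LFCs between −0.03 and 0.01 and did not pass in either genotype.

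**Figure D4:**
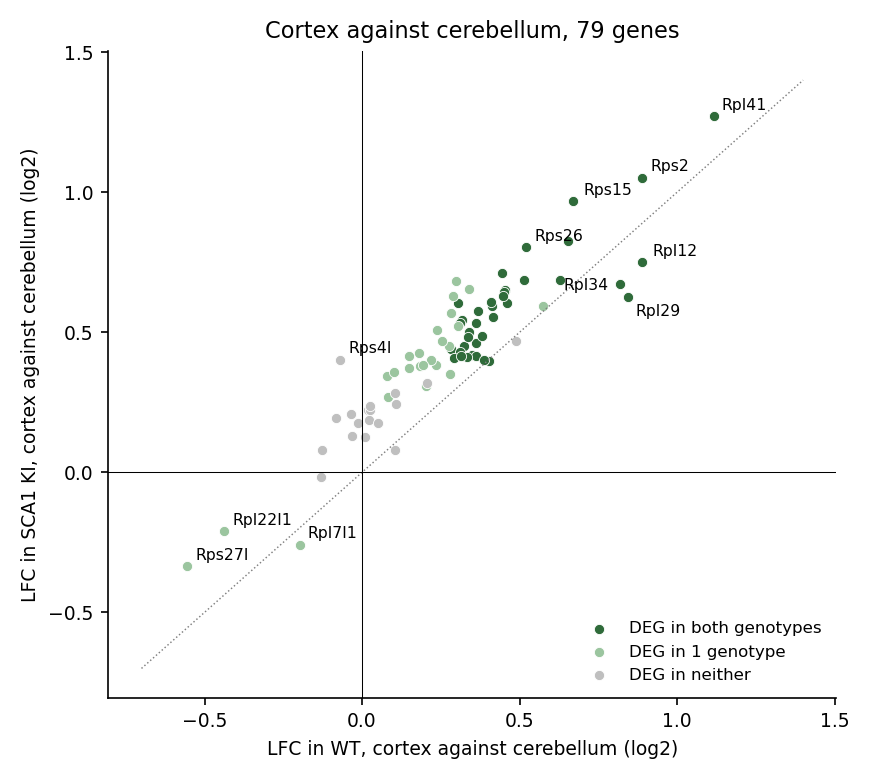
LFC of cortex against cerebellum for the 79 ribosomal protein genes in WT (horizontal axis) and in SCA1 KI mice (vertical axis), coloured by whether the gene passed the test in both genotypes, 1 or neither, with a dotted line of equal LFC. Rpl41 is highest in both (1.12 and 1.27), most points lie above 0 in both, and Rps27l, Rpl22l1 and Rpl7l1 lie below 0 in both.

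Library D weighed on the count of regional differences as well. Without it, 17 genes were higher and 2 lower in the WT cortex, with a median LFC of 0.17, beside 30% and 29.4% of all tested genes. The 17 of 79 are thus a smaller share than that of all genes called higher. Without library B 50 were higher and none lower, beside 30.4% and 30.3% of all tested genes. Without libraries A and D, 21 were higher and 3 lower in WT, beside 30.6% and 30.3%, so that the share called higher was near that of all tested genes. In SCA1 KI 48 were higher and 3 lower in that fit, beside 30.9% and 29.9%. In 17 of the 39 genes the WT call held under every alternative in which the gene was tested, among them Rps2, Rpl41, Rpl12, Rpl29, Rpl4, Rps26, Rps15 and Rpl34. With a mean of 71.6 normalized counts, Rpl34 was not tested at the minimum mean of 100.

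The 2 genes that were lower in WT cortex were both paralogs, genes that encode a second form of another ribosomal protein. Rps27l, a paralog of Rps27 that p53 can induce, had 187, 273 and 336 normalized counts in WT cortex libraries B, C and D and 385, 402 and 353 in WT cerebellum, with an LFC of −0.56 (SE 0.20, limma adjusted p = 0.0253). Rpl22l1, which can replace Rpl22 in the ribosome and whose message is repressed by Rpl22, had 883, 1332 and 1282 in WT cortex and 1646, 1629 and 1395 in WT cerebellum, with an LFC of −0.44 (SE 0.17, limma adjusted p = 0.0366). The regions did not overlap for either gene, and both calls were lost without cortex library B, the lowest of the cortex libraries for both genes, at LFCs of −0.32 and −0.25. Both were also lost without cerebellum library 2 (−0.54 and −0.39) and without cerebellum library 4 (−0.51 and −0.40). In SCA1 KI mice the LFCs were −0.34 and −0.21 and did not pass. Rpl7l1, a paralog of Rpl7 that works in ribosome assembly, was the gene called lower in SCA1 KI cortex (LFC −0.26, SE 0.07, limma adjusted p = 0.00654). In WT its LFC was −0.20 (limma adjusted p = 0.0276), under the limit on size.

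The share of each paralog in the summed count of its pair was higher on average in the cerebellum than in the cortex, and the libraries of the regions overlapped for Rpl7l1 in WT and for Rps4l in SCA1 KI. Rpl22 had a WT LFC of −0.01, and Rpl22l1 made up 27.1% ± 2.9 of the summed normalized count of the pair in WT cortex and 33.3% ± 2.1 in WT cerebellum (SD, n = 3), with 29.8% ± 2.0 and 35.7% ± 1.4 in SCA1 KI. Rpl7l1 made up 20.7% ± 1.0 of its pair in WT cortex and 22.7% ± 1.2 in WT cerebellum, and 19.3% ± 0.8 and 23.8% ± 0.5 in SCA1 KI (SD, n = 3). Rps27l made up 85.0% ± 2.1 and 92.5% ± 2.2 in WT and 85.0% ± 0.9 and 91.5% ± 1.5 in SCA1 KI (SD, n = 3). The high share of Rps27l goes with the low count of Rps27, 22.0 to 68.0 normalized counts over the 12 libraries, whose windows are all shared with other transcripts. For Rps4l the shares of the pair with Rps4x were 6.90% ± 1.43 and 8.81% ± 0.13 in WT and 8.11% ± 0.67 and 8.55% ± 0.97 in SCA1 KI (SD, n = 3). These shares are per gene and not corrected for length, and were not tested. No paralog was a DEG between the genotypes in either region.

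**Figure D5:**
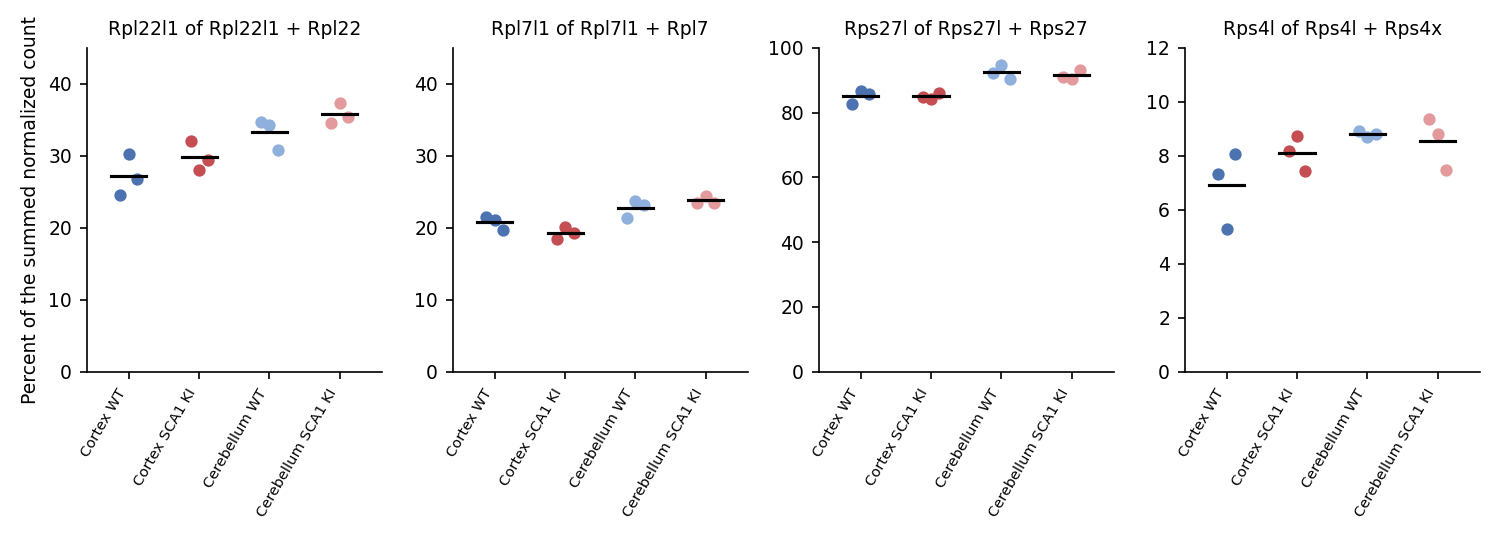
Share of the paralog in the summed normalized count of the paralog and its parent gene (vertical axis, percent) for 4 pairs, with 3 libraries for each group as points and the group mean as a line. Rpl22l1 rises from 27.1% in WT cortex to 33.3% in WT cerebellum and Rps27l from 85.0% to 92.5%, and the scales differ between the panels.

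The 4 genes on the X chromosome, Rpl10, Rpl36a, Rpl39 and Rps4x, had cortex genotype LFCs between 0.19 and 0.33 (median 0.24) and cerebellum LFCs between −0.16 and 0.04. All 4 were higher in SCA1 KI cortex than in SCA1 KI cerebellum, and Rpl10 and Rps4x also in WT. Rpl39, one of the shortest proteins of the large subunit, had 1238, 1661 and 2309 normalized counts in WT cortex B, C and D and 2901, 1739 and 1886 in SCA1 KI cortex A, E and F, and so showed the spread of libraries A and D more than most. Its LFC was 0.33 (SE 0.20, limma adjusted p = 0.302), the second largest of the family in the cortex.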

How the data were processed

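Poly-adenylated RNA of 12 libraries was sequenced by the authors as paired ends of 75 bases, aligned with STAR to mm10, counted on genes with featureCounts and scaled with DESeq2 (versions not given in the sources used here). The deposited signal is the read count of a gene divided by the size factor of its library. Dividing by the value of a single read gave whole numbers for 100% of the values (within 0.05 of a read), so reads were recovered. Every library column was used, and each names region and genotype. Replicate pairs differed by a mean chi-square of 7.54 to 36.6 per gene, beyond sampling noise.

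Log2(normalized count + 1) of 15369 genes (mean 10 or more) was fitted with limma 3.58.1 (trended empirical Bayes) in R 4.3.3, with 4 group means over all 12 libraries. LFCs on this scale understate changes of low genes. The design had 5 comparisons. On the recovered reads edgeR 4.0.16 called 842 genes higher and 1630 lower in the SCA1 KI cortex and 145 and 721 in the cerebellum, and DESeq2 1.42.0 called 816 and 1842, and 231 and 919. On counts simulated for the cortex comparison with 200 genes changed by a fold of 2, limma recovered 93%, edgeR 93.5% and DESeq2 96.5%, with 7, 6 and 27 false calls. Genes were drawn independently, at a change larger than any cortex LFC of the 79 genes between genotypes. The rates therefore do not describe smaller changes or shifts shared by the genes of a library. Length and GC trends were natural splines with 5 degrees of freedom each, over 15221 genes. Coordinates, coding lengths and shared windows were from GENCODE vM21 on GRCm38.

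The genes and lists were chosen with earlier results of these data known. Named genes were set by rule: the 3 smallest p in each genotype comparison, the 2 smallest p of the interaction, up to 8 called genes in each direction between WT regions, the 3 highest and 3 lowest levels per kb, paralogs with their parents, stalk genes, Rpl5, Rpl11, Rpsa, Rps6, Rps19 and Rps4x, and from each other list up to 2 DEGs with the smallest p. Trp53 and genes named for their chromosome, their place in a range or a fit without a library were chosen after their values were seen. A few genes are not named here, in the text or in the plots by gene.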

Additional observations from a re-analysis of the deposited data

How the results depend on the processing

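The comparisons were repeated without a filter, with a minimum mean of 100, pseudocounts of 0.5 and 5, the 6 libraries of a comparison alone, TMM scaling, median centring, edgeR, DESeq2, no limit on the fold change, the length and GC trend removed, and without each library. The fit without libraries A and D together was chosen after seeing the data. The cerebellum count was 0 throughout, and the medians of the 5 comparisons stayed within 1 SD between libraries.

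With the length and GC trend removed, 1 gene was called in the cortex and 1 in the interaction, both higher. Without libraries A and D these counts were 4 and 4, WT cortex against cerebellum had 21 higher, and SCA1 KI had 3 lower. Leaving out 1 library gave 0 to 11 genes higher in the SCA1 KI cortex (11 without D) and 0 to 1 in the interaction. It gave 17 to 50 higher and 0 to 2 lower between WT regions (0 lower without B, 2 or 4), and 41 to 65 higher and 0 to 3 lower between SCA1 KI regions (3 lower without A, 0 lower without 5, E or F). The cause was not tested. For the genes named in a comparison no direction reversed, and 10 values passed and 6 no longer passed under some alternative.

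No paired analysis was possible because the library columns carry no replicate number of the labels. Low counts limit Rpl30, Rps27 and Rpl34, with means under 100 normalized counts. Rpl30 and Rps27 had the widest 95% intervals of the LFC, but Rpl34 did not stand out.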
